A study of Caenorhabditis elegans with 4 samples.

Results

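Aminoacyl-tRNA synthetases, the enzymes that load each tRNA with its amino acid before the ribosome uses it, were examined by RNA level in early embryos of the nematode C. elegans. Members were chosen by name: a gene symbol made of 1 or 2 letters followed by rs and the number 1 or 2. Of 35 symbols of this form in the gene table, 33 belong to tRNA synthetases and all 33 were measured, out of 20040 genes in all. The other two, hgrs-1, which acts in endosomal sorting, and mcrs-1, only share the form of the name and were left out. RNA came from the strain N2, wild type in genotype and not treated, in 1 group of 4 samples at the early embryo stage. Each sample was a separate preparation of embryos, released with bleach from gravid adults grown in liquid culture, and held a mixture of early stages. The RNA was labelled with Cy3 and hybridized to NimbleGen expression arrays of a single color, and the authors' deposited values are intensities after quantile normalization and Robust Multichip Average (RMA) summary of the probes. There was no second condition, so no test between conditions was possible.

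Synthetases fall into a pair of structurally unrelated classes, class I and class II, which bind ATP with different folds. A eukaryotic cell translates in the cytosol and in the mitochondria, and both need a full set of charged tRNAs. Most synthetases for the mitochondria are encoded by separate nuclear genes and imported, while some genes supply both compartments, as GARS1 and KARS1 do in human. In C. elegans the number in the symbol mostly follows this division, with 1 for the cytosolic enzyme and 2 for the mitochondrial one. Alanine is a known exception, since aars-2 encodes the cytosolic enzyme, and the numbers of the tyrosine and valine genes may not follow the division either, which was not settled here. The genes are therefore called here number 1 and number 2 genes, and compartments are named only as background. A fertilized egg starts with RNA that the mother's germ line has made, so RNA of a whole embryo can be maternal or newly made, and these arrays do not separate them. Fewer cells that hold a transcript and less transcript per cell also cannot be told apart in RNA from whole embryos.

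All values are log2 intensities averaged over the transcripts of a gene, and errors are SDs over the 4 samples. Each transcript of the 33 genes had 3 probes. The values are per probe set, not per length of the transcript, and probes differ in affinity, so a difference between genes is one of intensity and not a ratio of molecules. RNA levels were also standardized over all genes to z-scores, so that the mean of all genes is 0 and their SD is 1. Since the files hold no background call, a gene was counted as above background when its value exceeded, in each sample, the level that 2.5% of 1343 chemoreceptor genes of the serpentine families exceeded. That level lay between 8.47 and 8.70 in the 4 samples. The labelled stage was checked on marker genes, with 42.0% of all genes above the level. Of the maternal genes 12 of 12 were above it, against 0 of 6 yolk protein genes. The counts were 4 of 12 for sperm, 1 of 6 for muscle, 2 of 5 for neuron, 2 of 6 for cuticle and 2 of 6 for gut genes. Those for sperm, neuron, cuticle and gut genes were not far from the share of all genes, so absence of these cells was not shown. Between pairs of samples, Pearson's correlation was 0.968 to 0.992 across all genes and 0.969 to 0.991 across the 33 members, a description across genes that are no independent replicates.

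All 20 amino acids were represented among the synthetase genes, and every member had an RNA level above the median of all genes. Of the 33 genes, 33 were above the chemoreceptor level in 4 of 4 samples, where 42.0% of all genes were. The smallest margin over that level in any sample was 2.00, for pars-2. When all genes were ranked on their mean into 5 bins of equal size, 21 of the 33 fell in the highest bin, which holds 20.0% of genes by construction, and the other 12 fell in the next. The median z-score of the members was 1.35, with a range from 0.63 to 1.85, where the median over all genes was -0.27. On the log2 scale, the members had a median of 13.44 and spanned 10.96 to 15.17, and all genes had a median of 7.82. The genes lie on chromosomes I to V, with 11 on I, 4 on II, 6 on III, 8 on IV, 4 on V and 0 on X. Of all 20040 genes measured, 2644 lie on X, and these counts were not tested.

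**Figure D1:**
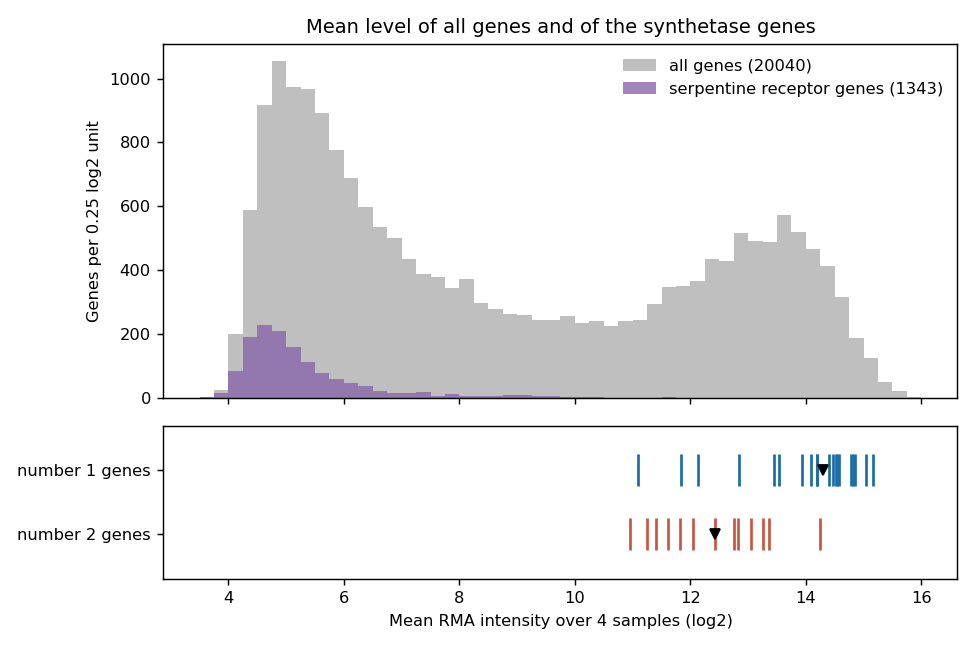
Upper panel, number of genes (y axis) by mean log2 intensity over the 4 samples (x axis), for all 20040 genes in gray and for 1343 serpentine chemoreceptor genes in purple. Lower panel, 1 stroke for each of the 20 number 1 genes and 13 number 2 genes on the same axis, with triangles at the group medians of 14.30 and 12.42. All strokes lie in the upper hump of the distribution, right of 10.9.

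The number 1 genes had the higher levels as a group. Their median was 14.30 (range 11.10 to 15.17; z-score 1.60), and 17 of 20 were in the highest bin. The number 2 genes had a median of 12.42 (range 10.96 to 14.24; z-score 1.06), and 4 of 13 were in the highest bin. Within samples, the median of number 1 genes exceeded that of number 2 genes by 1.995, 1.86, 1.51 and 2.17 in replicates 1 to 4, or 1.88 ± 0.28, which is a 3.69-fold difference in intensity. The difference had the same direction in 4 of 4 samples and was several times its SD. That SD is over arrays with the same genes and the same probes. It holds neither the spread among genes nor differences in probe affinity. The groups still overlapped: by mean, 10 of 20 number 1 genes were above the highest number 2 gene, aars-2, and 1 number 2 gene, pars-2, was below the lowest number 1 gene, wars-1. The order of wars-1 and pars-2 was not resolved, with a difference of 0.14 ± 0.40 that was positive in only 3 of 4 samples. The smallest p-value that an exact permutation test over 4 samples can give is 0.125, so no difference between a pair of genes could pass a threshold of 0.05, and sizes and spreads are given instead.

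**Figure D2:**
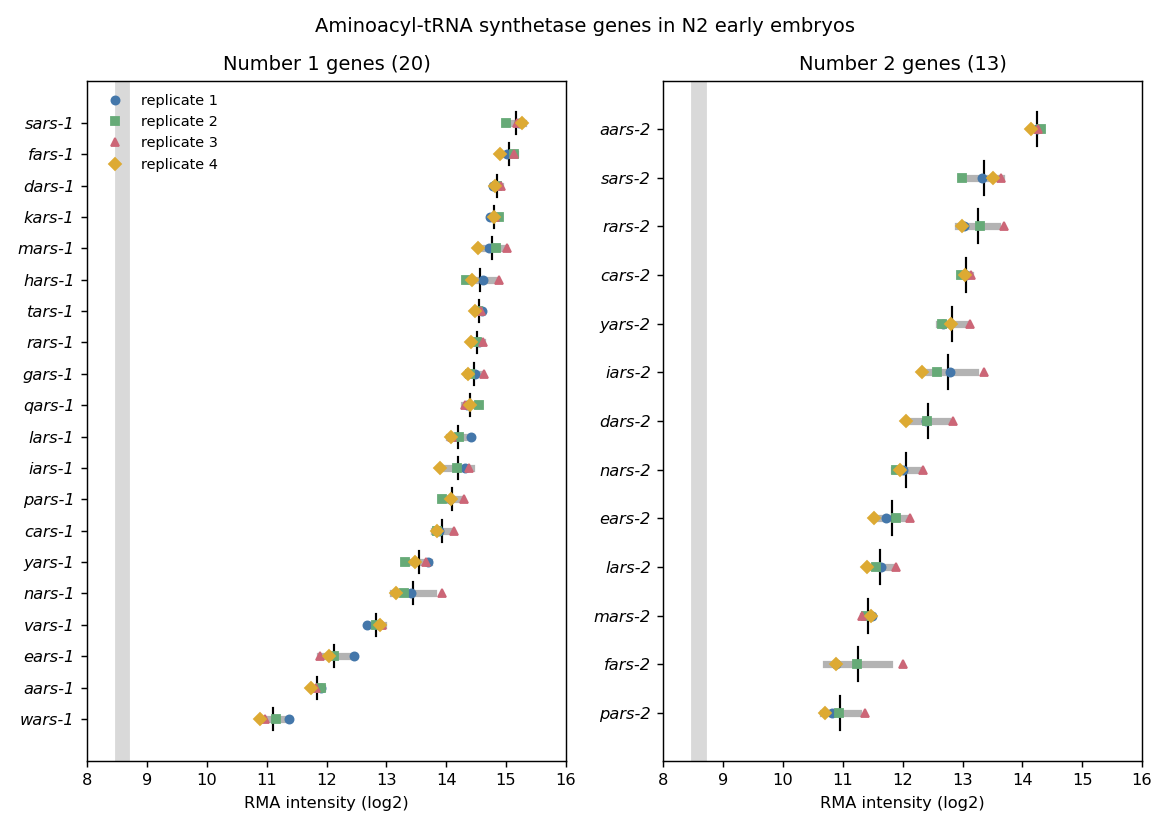
Log2 RMA intensity (x axis) of the 20 number 1 genes (left) and the 13 number 2 genes (right) in each of the 4 samples, with the mean as a black stroke and 1 SD to either side in gray. The vertical gray band spans the chemoreceptor level of the samples, 8.47 to 8.70, and no symbol comes near it.

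The highest of all synthetase genes was sars-1, for serine, at 15.22, 15.01, 15.18 and 15.27 in replicates 1 to 4. Its mean of 15.17 ± 0.12 exceeded that of 99.5% of genes. The next was fars-1, which encodes a subunit of the cytosolic phenylalanine enzyme, at 15.02, 15.13, 15.13 and 14.90 (15.04 ± 0.11). These values overlap between the genes, and sars-1 exceeded fars-1 in only 3 of 4 samples, by 0.13 ± 0.21. It was followed by dars-1, for aspartate, at 14.79, 14.86, 14.91 and 14.82. It varied by only 0.05 (SD), the smallest spread of the 33 members, and was below fars-1 in each sample, by 0.20 ± 0.08.

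Below these came a dense series of number 1 genes. Lysine's kars-1 had a mean of 14.81 ± 0.06 and methionine's mars-1 one of 14.77 ± 0.20. The genes hars-1 (histidine, 14.57 ± 0.25), tars-1 (threonine, 14.55 ± 0.06), rars-1 (arginine, 14.52 ± 0.08), gars-1 (glycine, 14.47 ± 0.12) and qars-1 (glutamine, 14.40 ± 0.10) followed closely on one another. They could not be ordered even by intensity, since each step between neighbors among them changed sign in at least 1 sample. The next values belonged to lars-1 (leucine, 14.20 ± 0.16), iars-1 (isoleucine, 14.19 ± 0.21), pars-1 (proline, 14.09 ± 0.15) and cars-1 (cysteine, 13.92 ± 0.14), followed by yars-1 (tyrosine, 13.54 ± 0.18) and nars-1 (asparagine, 13.44 ± 0.34). Over the whole order of 33 genes there were 32 steps between neighbors, and only 8 of them kept 1 direction in all 4 samples and exceeded the SD of the difference. This spread is over arrays with the same probes and holds no difference in probe affinity, so it bears on the order of intensities only and not on an order of RNA amounts between genes.

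Another 4 number 1 genes were set apart from the others. The lowest was wars-1, the tryptophan gene, at 11.38, 11.15, 10.98 and 10.90 (11.10 ± 0.21), a value above that of 67.4% of genes. It was followed by aars-1, for alanine, at 11.91, 11.90, 11.82 and 11.74 (11.84 ± 0.08), and by ears-1, for glutamate, at 12.46, 12.13, 11.88 and 12.05 (12.13 ± 0.24). All values of these genes were below all values of the 17 other number 1 genes. The other, vars-1 for valine, had 12.68, 12.83, 12.92 and 12.90 (12.83 ± 0.11), below the 16 others in each sample.

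Among number 2 genes the highest was aars-2, which encodes the cytosolic alanine enzyme, at 14.24, 14.31, 14.26 and 14.14 (14.24 ± 0.08). No other number 2 gene reached these values in any sample. Next were sars-2, for serine, at 13.32, 12.99, 13.65 and 13.51 (13.37 ± 0.28), and rars-2, for arginine, at 13.02, 13.29, 13.70 and 12.99 (13.25 ± 0.33). The samples of these genes overlap, and neither was higher in all of them.

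By mean, the lowest number 2 gene, and the lowest of all members, was pars-2, for proline, at 10.81, 10.94, 11.37 and 10.70 (10.96 ± 0.29), still above 66.7% of genes. In replicate 3 it was above the number 1 gene wars-1, which had 10.98. The phenylalanine gene fars-2 had 10.89, 11.24, 12.00 and 10.88 (11.25 ± 0.53), the largest SD of the 33 genes. Replicate 3 stood above its other samples. The methionine gene mars-2 had 11.48, 11.38, 11.32 and 11.47 (11.41 ± 0.08) and, unlike pars-2 and fars-2, was lowest in replicate 3.

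Between these limits were lars-2 (leucine, 11.62 ± 0.21), ears-2 (glutamate, 11.82 ± 0.26), nars-2 (asparagine, 12.05 ± 0.20), dars-2 (aspartate, 12.42 ± 0.32), yars-2 (tyrosine, 12.82 ± 0.22) and cars-2 (13.06 ± 0.07). The gene table lists cars-2 as a pseudogene next to cars-1, and its probes may detect RNA of its neighbor. The isoleucine gene iars-2 had 12.79, 12.57, 13.36 and 12.32, and its SD of 0.45 was second to that of fars-2. Next in SD was a number 1 gene, nars-1, at 13.41, 13.29, 13.93 and 13.16 (SD 0.34). In all of these 3 genes the highest sample was replicate 3 and the lowest was replicate 4.

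For 13 amino acids both a number 1 and a number 2 gene were measured, which allows a comparison within each sample. The number 1 gene was higher in 4 of 4 samples for 11 amino acids, lower in 4 of 4 for alanine, and of mixed sign for glutamate. By the exact two-sided sign-flip permutation test over samples, p was 0.125 for 12 pairs (0.135 after Benjamini-Hochberg adjustment over the 13 pairs) and 0.375 for glutamate. The gap was largest for phenylalanine, where fars-1 exceeded fars-2 by 4.13, 3.89, 3.14 and 4.02 in replicates 1 to 4, or 3.80 ± 0.45 and 13.9-fold in intensity. For methionine it was 3.23, 3.45, 3.70 and 3.07 (3.36 ± 0.28, 10.3-fold) and for proline 3.25, 2.99, 2.93 and 3.38 (3.14 ± 0.21, 8.80-fold). Gaps of 1.27 to 2.58 were found for leucine, aspartate, serine, isoleucine, asparagine and arginine.

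At the other end, ears-1 exceeded its counterpart ears-2 by 0.73, 0.24 and 0.52 in replicates 1, 2 and 4, whereas it was lower in replicate 3, with a difference of -0.25. The mean of 0.31 ± 0.42 is smaller than the spread, so the glutamate genes were not resolved. The mean was 0.17 without replicate 1 and 0.50 without replicate 3. Both lie in the zone of number 2 genes. The tyrosine genes differed by 1.03, 0.65, 0.54 and 0.66 (0.72 ± 0.21), and the direction of this difference depends on which transcript of yars-2 is taken, as given below. The cysteine genes differed by 0.87 ± 0.08, or by 0.50 when the highest transcript of each gene is taken, with the limit on cars-2 stated above.

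Among the 13 pairs, alanine was the only one whose number 2 gene was the higher one in each sample. The difference aars-1 minus aars-2 was -2.33, -2.41, -2.45 and -2.39, with an SD of 0.05, the smallest spread of the 13 pairs. By compartment, the cytosolic gene of the pair was thus 5.26-fold higher in intensity. An exchange of the alanine genes between the groups was chosen after the data were seen, and no other pair was exchanged. With aars-2 thus placed among the number 1 genes, the gene of that group was higher in each sample for 12 of 13 amino acids. The difference of group medians was then 2.27 in place of 1.88. On the study's list of loci rich in the MES-4 protein and its H3K36 mark but poor in RNA polymerase II, aars-1 was the only synthetase gene, and yars-1 was the only one on its soma-specific list, while its germline-specific list held 0. These lists hold 1.03%, 1.61% and 0.838% of all genes measured, and nothing is read from counts of 1 and 0 among 33 genes.

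**Figure D3:**
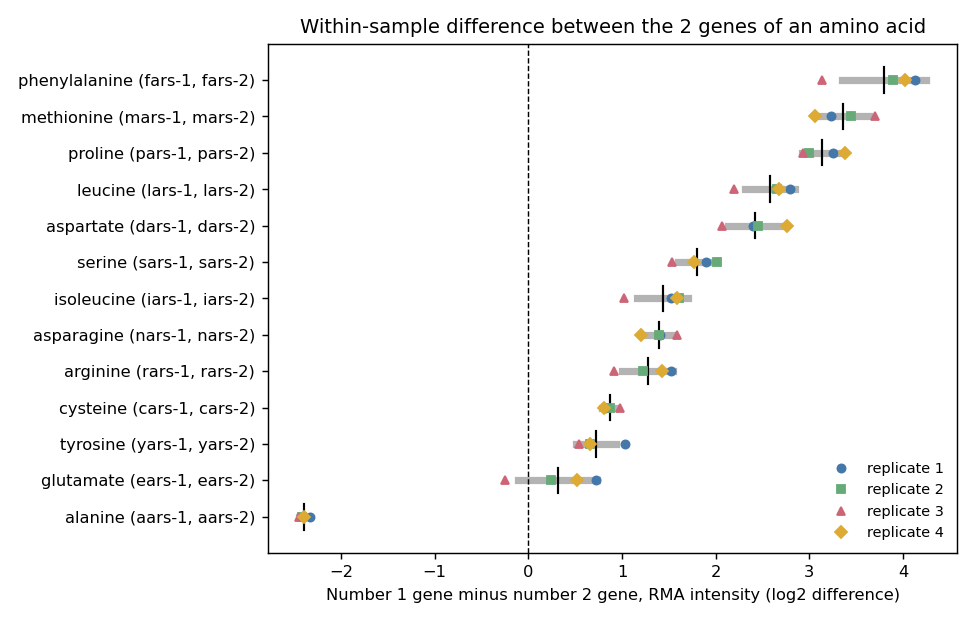
Difference in log2 RMA intensity between the number 1 and the number 2 gene of an amino acid (x axis) within each of the 4 samples, for 13 amino acids, with the mean as a black stroke and 1 SD to either side in gray. The values for alanine lie left of 0, those for glutamate fall on both sides, and the 11 other pairs lie right of 0, up to 4.13 for phenylalanine in replicate 1.

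For 7 amino acids there was only a number 1 gene: glycine, histidine, lysine, glutamine, threonine, valine and tryptophan. In human, glycine and lysine are served in both compartments by 1 gene, and mitochondria charge the glutamine tRNA by way of glutamate. The median of these 7 genes was 14.47, against 14.19 for the 13 number 1 genes with a counterpart, and both sets spanned most of the range (11.10 to 14.81 and 11.84 to 15.17). For valine, a further synthetase gene is known as glp-4, a name the rule does not match. It may have had an older symbol of the synthetase form, which the gene table does not list, so its place outside the members rests on its present name. It had 14.04, 14.18, 13.83 and 13.85 (13.97 ± 0.17), above vars-1 in each sample. Were it counted as a number 2 gene, there would be 34 members and 14 pairs, and valine would join alanine as a pair with the lower number 1 gene in each sample, by a difference of -1.14 ± 0.25. The difference of group medians would then be 1.76 ± 0.28, and 6 amino acids would have only a number 1 gene. The gene fars-3, for the partner subunit of fars-1, also falls outside the rule and had 14.15, 13.93, 14.14 and 14.06 (14.07 ± 0.10), below fars-1 in each sample.

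Number 1 genes of class II had a median of 14.56 and those of class I one of 14.06, with 10 genes each and overlapping ranges (11.84 to 15.17 and 11.10 to 14.77). For number 2 genes, the order was the opposite, with 12.24 for 6 genes of class II and 12.76 for 7 of class I. In human cells, the synthetases for 9 amino acids (glutamate, proline, isoleucine, leucine, methionine, glutamine, arginine, lysine and aspartate) are held in 1 large complex. The C. elegans number 1 genes for these amino acids had a median of 14.40 and the 11 others one of 13.92. This grouping was chosen after the values were seen, and the ranges (12.13 to 14.84 and 11.10 to 15.17) overlap.

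Of the members, 12 had more than 1 transcript on the array. The highest and lowest transcript of a gene differed by a median of 0.13, against 0.53 over the 2193 genes of the array with several transcripts. Probe sets of related transcripts may share target sequence, which limits how far they are separate measurements. Only yars-2 had transcripts more than 1 apart, where 36.4% of all such genes did. Its transcript K08F11.4a was at 11.88, 12.00, 12.40 and 11.95, and K08F11.4b at 13.46, 13.33, 13.85 and 13.67, a gap of 1.52 ± 0.17 with no overlap. The b transcript alone was level with yars-1, with a mean difference (yars-1 minus the b transcript) of -0.040. Smaller gaps were found for cars-2 (0.74 ± 0.21), pars-1 (0.67 ± 0.23) and pars-2 (0.44 ± 0.32). In the other 8 genes (fars-1, tars-1, kars-1, hars-1, lars-2, gars-1, rars-1 and cars-1) the mean gap was at most 0.19. In hars-1, the gap between transcripts a and b was 0.04 ± 0.23, below its spread.

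**Figure D4:**
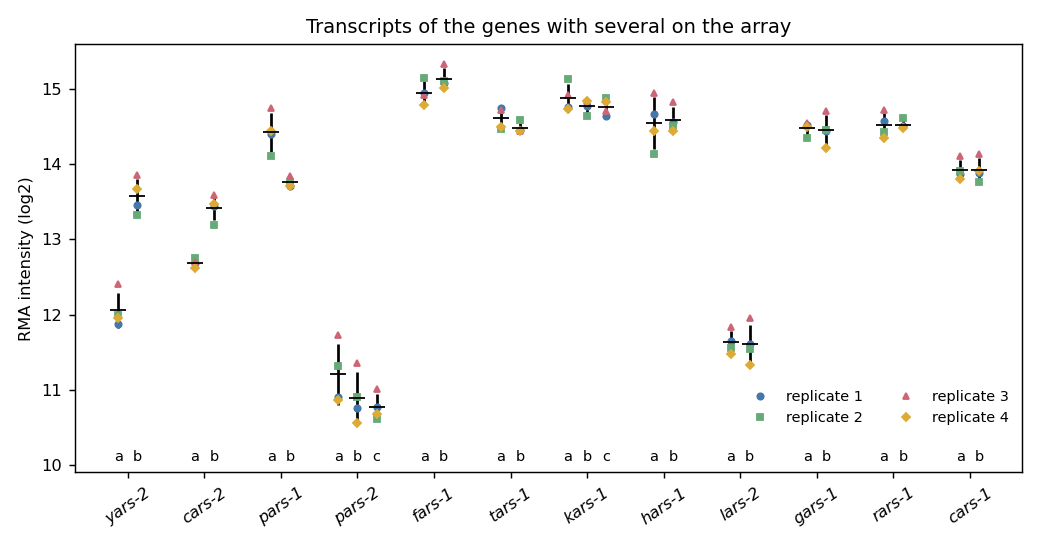
Log2 RMA intensity (y axis) of each transcript of the 12 synthetase genes with several on the array, labelled a, b and c above the x axis, with 1 symbol per sample, the mean as a horizontal stroke and 1 SD as a vertical line. The a and b transcripts of yars-2, at the left, are 1.52 apart, and those of the 8 genes from fars-1 to cars-1 nearly coincide.

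The spread over the 4 samples was small for number 1 genes and larger for number 2 genes. The median SD was 0.13 for the former and 0.26 for the latter. Spread also depends on level: the median SD was 0.17 over all genes of the highest expression bin and 0.25 over those of the next, which hold most number 1 and most number 2 genes respectively, and 0.35 over all genes.

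Number 2 genes were high in replicate 3. Replicate 3 was the highest sample for 11 of 13 number 2 genes and 11 of 20 number 1 genes, where it was the highest for 33.6% of all genes and for 43.2% of genes in the upper 2 bins. The deviation of a gene from its own mean in replicate 3 had a median of 0.31 for number 2 genes and 0.09 for number 1 genes, and of 0.05 for genes of the upper 2 bins. The deviation was positive for 12 of 13 number 2 genes, mars-2 being the exception. Replicate 4 had the opposite sign, with median deviations of -0.22 for number 2 genes, -0.09 for number 1 genes and -0.02 for genes of the upper 2 bins. It was the lowest sample for 8 of 13 and 10 of 20 genes, against 31.6% of all genes and 28.5% of those in the upper 2 bins. As a result, the difference between the group medians was lowest in replicate 3 (1.51) and highest in replicate 4 (2.17), with the same sign in both. Marker genes also moved between these samples. In replicate 3 the median deviation was -0.87 for the 6 muscle genes, -0.30 for the 6 cuticle genes and 0.09 for the 12 maternal genes. It was -0.20 for gut, -0.09 for neuron, 0.05 for yolk protein and 0.06 for sperm genes. The cuticle genes moved both ways there, with sqt-1 at 6.83 (mean 5.77) and sqt-3 at 11.66 (mean 12.67). In replicate 4 it was 0.48 for the 12 sperm genes, 0.31 for yolk protein, 0.29 for cuticle and 0.14 for neuron genes. It was 0.01 for gut, -0.02 for muscle and -0.05 for maternal genes. Only 1 of the 6 muscle and 2 of the 6 cuticle genes were above the chemoreceptor level. The summed intensity of the muscle genes was between 1222 and 4035 over the samples. The part of embryo stage in the deviations of the synthetase genes was not tested.

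**Figure D5:**
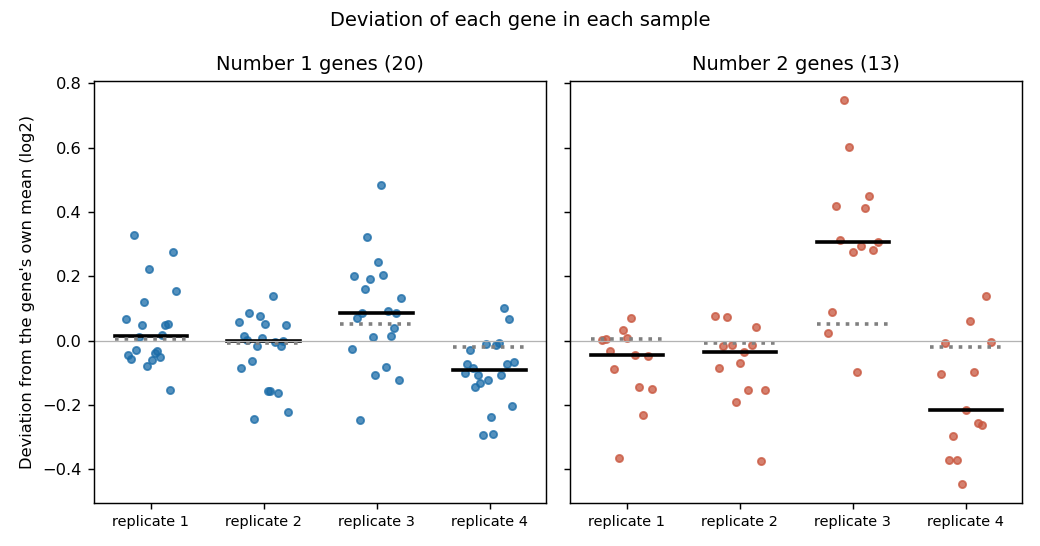
Deviation of each gene from its own mean over the 4 samples (y axis, log2) in each sample (x axis), for the 20 number 1 genes (left) and the 13 number 2 genes (right). Black bars are medians of the points and dotted gray bars are medians over all genes of the upper 2 expression bins. In replicate 3, the median of number 2 genes is 0.31 and that of number 1 genes 0.09.

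Most genes on a list of partners that work beside synthetases were high as well. The list of partners held 32 genes. They were for the synthetase subunit fars-3, for translation elongation factors and for modification and processing of tRNA or other RNA. The rest were for the amino acid starvation response, including sensing of uncharged tRNA, or for RNA polymerase III, which transcribes tRNA genes. Of the 32 genes, 32 were above the chemoreceptor level (42.0% of all genes) and 23 were in the highest bin (20.0%). Their median was 13.48, near the 13.44 of the synthetase genes. Without fars-3, all 31 were above the level, 22 were in the highest bin and the median was 13.45. The 3 highest were eef-1A.1, which carries charged tRNA to the ribosome, at 15.70 ± 0.04, the translocation factor gene eef-2 at 15.62 ± 0.14, and eef-1G, for a subunit of the exchange factor, at 15.27 ± 0.07. These exceeded every synthetase gene in mean, although probes of eef-1A.1 may also detect the closely related eef-1A.2. The 3 lowest were mttu-1 and mtcu-1, for modification of mitochondrial tRNA, at 9.43 ± 0.42 and 10.16 ± 0.51, and gcn-1, which acts with the kinase of the amino acid starvation response, at 9.83 ± 0.56. Replicate 3 was the highest sample for 6 of 7 partner genes taken as those of mitochondrial translation (tufm-1, tufm-2, tsfm-1, gfm-1, mttu-1, mtcu-1 and mtcu-2), with a median deviation of 0.27. It was also the highest for 16 of the 25 others, with 0.13. Both shares were above those over all genes (33.6%) and over genes of the upper 2 bins (43.2%). This division of the partners was made after the values were seen, and the compartments of the 25 others were not checked.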

How the data were processed

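RNA was measured in 4 samples of 1 group on single-color arrays. According to the methods and the submitters' processing notes, the authors applied quantile normalization and combined probes by RMA before they deposited the intensity values, which are on a linear scale. The deposited per-sample tables also give the count of probes per transcript. The sources used here do not give the software version, the array annotation or the genome build. The sample labels give a DNase step for each sample and the methods for only part of them.

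From these, log2 values were taken with no pseudocount, and 23180 transcripts were averaged into 20040 genes by sequence name, 19380 of which had an entry in a RefSeq gene table of assembly WBcel235, used for symbols and chromosomes only. No product names were given there, so the number in the symbol alone divided the genes. The series table held the same intensities (0 of 92720 values differed). No filter was applied. Differences were taken within samples and tested by exact sign-flip permutation. Members, lists and tests were chosen with earlier results of these data known. All members are named. Values in each sample are given for the 3 highest and 3 lowest of each number, the 3 largest SDs, the 3 largest and 3 smallest differences of a pair, and transcripts over 1 apart. A few others, such as dars-1 beside its neighbors, vars-1, glp-4 and fars-3, and the human complex, were chosen after values were seen. The alternatives were leaving out each replicate, the highest transcript, the median over samples, a pseudocount of 16, a filter on low values, other chemoreceptor levels, other numbers of bins, percentile ranks and, added after the data were seen, the alanine genes exchanged, cars-2 left out or glp-4 counted in. Functions were tested on simulated data. Python 3.11.15, numpy 2.4.6, pandas 2.3.3, scipy 1.17.1 and matplotlib 3.10.9 were used. The number of arrays limits the precision.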

Additional observations from a re-analysis of the deposited data

Results flagged for a closer look

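In cars-1, replicate 3 was at 14.13 and the other 3 samples lay between 13.84 and 13.88, so that replicate 3 stood apart from the rest by Dixon's criterion for 4 values. In isoleucine, the difference between iars-1 and iars-2 was 1.02 in replicate 3 and 1.52 to 1.61 in the others, which met the same criterion. Among the 33 genes, 1 met it, where 7.88% of all genes did and chance alone gives about 1 in 20.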

How the results depend on the processing

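The counts above the chemoreceptor level and the number of amino acids with the higher number 1 gene stayed within 1.5 times their values under each alternative run. With 5 bins, the count in the highest bin was between 19 and 22. It was 24 with 4 bins and 15 with 10 bins. The highest bin then holds a larger or a smaller share of all genes, so these counts do not measure the same thing. The median z-score of number 1 genes was 1.64 with a pseudocount of 16 and 1.44 when the lowest expression bin of 5 was left out, and that of number 2 genes was 0.84 with that filter and 0.95 with the alanine genes exchanged. In percentile ranks, the medians were 94.9 and 76.4. The filter leaves out low genes from the mean and SD, which lowers every z-score. With the alanine genes exchanged, which was chosen after the data were seen, the difference of group medians was 2.27 and that of the alanine genes 2.39. With the highest transcript of each gene in place of the average, the tyrosine difference was -0.040 in place of 0.72, because transcript b of yars-2 alone was then used, and the cysteine difference was 0.50 in place of 0.87. Leaving out each replicate in turn changed no direction, but the glutamate difference was between 0.17 and 0.50. Counting glp-4 as a number 2 gene, also chosen after the data were seen, changed no direction of the group comparison. The division by number alone was also the main one, since no product names were given. No fit with the replicate number as a block was possible because all samples belong to 1 group, and the differences between genes were already taken within samples. No background was measured, so absence cannot be called, and 4 arrays limit what spread can be resolved.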

Other observations

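Among the members, 2 pairs are neighbors in the gene table, both on chromosome I. The adjacent genes yars-1 and mars-2 had means of 13.54 and 11.41, and cars-1 and cars-2 had 13.92 and 13.06. Across the 13 amino acids with both genes, the level of the number 1 gene and that of the number 2 gene had a Pearson correlation of -0.29, given as a description with amino acids as points and the same 4 samples behind each.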
